A study of Mus musculus with 2 samples.

Results

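Valve-like endothelial nuclei are described here, a small population in single-nucleus libraries of adult mouse hearts. They were chosen by their own counts: a nucleus was taken when Wnt9b and Hapln1 together had at least 2 UMIs (unique molecular identifiers, each counted as 1 captured transcript) and when Pecam1, Flt1, Ptprb, Cdh5, Emcn and Npr3 together had at least 2. The endothelial sum also had to be larger than the fibroblast sum (Pdgfra, Col1a1, Col3a1, Dcn) and the mesothelial sum (Msln, Upk3b, Wt1, Muc16), and mitochondrial genes could take at most 20% of the UMIs. This gave 104 nuclei of 18066 kept, or 104 of the 5486 that passed the endothelial part of the rule. The other 5382 endothelial nuclei, with at most 1 UMI of the pair, are the set they are compared with throughout. In the GRCm38 annotation Wnt9b lies on the minus strand at chr11:103727364-103749821 and Hapln1 on the plus strand at chr13:89539796-89611652.

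The valve leaflets of the heart are covered by an endothelium that is continuous with the endocardium and faces strong, turning blood flow. WNT9B is a secreted WNT ligand known from the endothelium over developing valves, and HAPLN1 is a link protein that fastens proteoglycans such as versican to hyaluronan, the main scaffold of the early valve matrix. The endothelium of the valve signals to the interstitial cells of the leaflet through such ligands, and KLF2 and KLF4 are its flow-responsive transcription factors.

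There were 2 libraries, 1 per condition, so no difference between the conditions has a replicate check. Male C57BL/6 mice, 8 weeks old, received an anti-mouse PD-1 antibody at 5 mg/kg into the peritoneum on days 1 and 14 of a 28-day cycle (PD-1 inhibitor), or phosphate-buffered saline on the same days (Control). PD-1 is an inhibitory receptor of T cells, and no allele was altered in either group. How many hearts went into a library is not stated in the sources used here. The Control library held 10197 barcodes and 13177525 UMIs and the PD-1 inhibitor library 7967 barcodes and 10875248 UMIs; 48 barcodes occurred in both, none of them in a valve-like nucleus of either.

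Of these nuclei 57 were Control and 47 PD-1 inhibitor. Of the 104, 46 held Wnt9b without Hapln1, 43 held both and 15 held Hapln1 without Wnt9b. Hapln1 alone occurred in 12 Control nuclei and 3 PD-1 inhibitor nuclei. The pair summed to a median of 4 UMIs per nucleus in each library, with a highest value of 21 in Control and 29 under the inhibitor. The endothelial genes summed to a median of 13 UMIs in Control and 15 under the inhibitor, and 3 of the 104 nuclei sat at the lower limit of 2. The fibroblast genes were at 0 in 23 nuclei and the mesothelial genes in 91, and in 4 nuclei the endothelial sum led by 1 UMI only. A further 14 nuclei had at least 2 UMIs of the pair and failed the gate, 10 because the fibroblast sum was as large as the endothelial sum or larger and 4 because the endothelial sum was under 2.

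**Figure D1:**
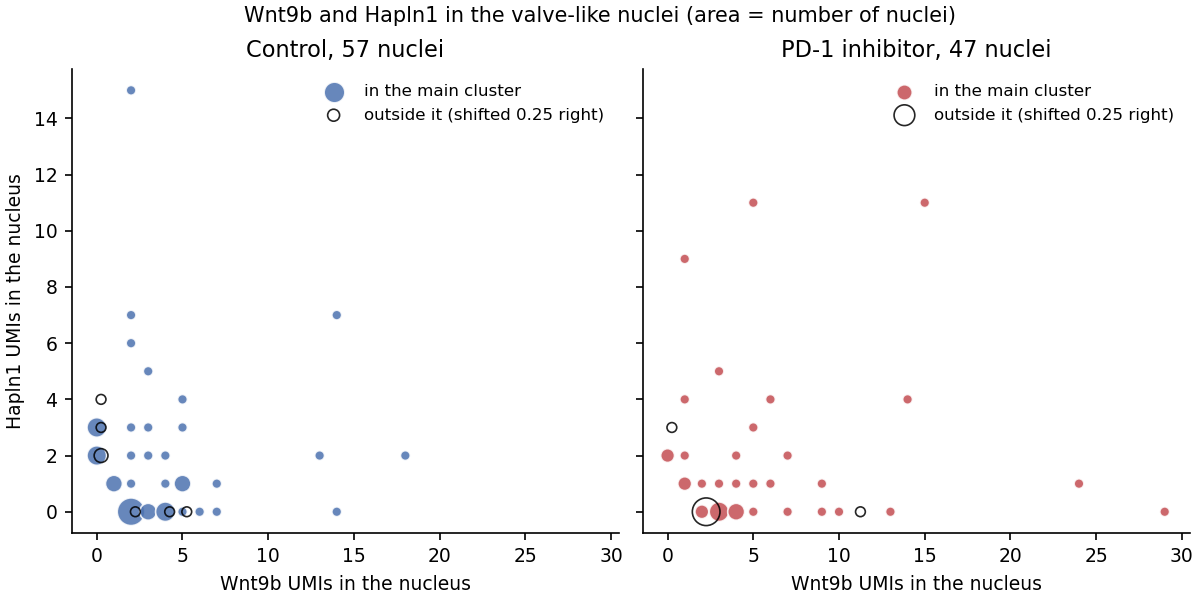
Wnt9b UMIs (horizontal) and Hapln1 UMIs (vertical) in each of the 57 Control and 47 PD-1 inhibitor valve-like nuclei; the area of a circle is the number of nuclei at that point. Open circles are nuclei outside the cluster that held 87 of the 104, and most of them lie at low counts of the pair.

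The valve-like nuclei were deeper than their neighbours. Their median depth was 1638 UMIs in Control and 1901 under the inhibitor, against 975 and 1003 in the other endothelial nuclei, and a rule that asks for 2 UMIs favours deep nuclei. Mitochondrial genes took 4.85% of their UMIs in Control and 3.13% under the inhibitor, against 1.86% and 2.20% in the other endothelial nuclei. The part of depth and mitochondrial content in the comparisons was not tested, and the counts of genes from thinned nuclei are given at the end. Ratios are therefore of UMIs scaled to a total of 1000000 (CPM) of summed nuclei, and shares of nuclei are also given after each nucleus was thinned to 500 UMIs.

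When both libraries were clustered together, 87 of the 104 nuclei fell into a single cluster of 203 nuclei (the main cluster), whose leading genes were Wnt9b, Hapln1, Dkk2, Pthlh, Inhba and Fam167a. It held 50 of the 57 Control and 37 of the 47 PD-1 inhibitor nuclei. Of the 10 inhibitor nuclei outside it, 6 lay in a cluster led by Aplnr, 3 in a cluster led by Nrg1 and Bmx and 1 in the cluster led by Mmrn1. The 7 Control nuclei outside it were spread over clusters led by Ahsg and Npr3 (2 nuclei), by the muscle genes Acta1 and Ckm (2), by the lymphatic gene Mmrn1 (1) and by the cell-cycle genes Pimreg and Cdc25c (1), and 1 was a doublet call left out of the clustering. Of the 17 outside, 11 had only 2 UMIs of the pair. The cluster also held 42 nuclei with 1 UMI of the pair and 66 with none, and 30 of its nuclei failed the endothelial part of the rule.

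The label was set beside 23 further genes listed for valve endothelium. Of these, 21 had at least 20 UMIs in the valve-like and other endothelial nuclei together. The list was chosen with earlier results of these data known, so it is not an independent check of the label. Here and below, a gene counts as higher or lower when its CPM differed by 2-fold or more in the pooled libraries. Of the 21, 14 were higher, with 14 when only Control was used and 15 when only the inhibitor library was used, and 2 were lower; among all 13296 genes with enough UMIs, 11.5% were higher and 21.2% were lower. The median log2 ratio of the list was 1.81 against -0.18 over all genes. With all ratios centred on that median, 2067 genes would be higher and 2330 lower, in place of 1527 and 2819. The counts of each list that follows stand against the shares of 11.5% and 21.2%. Because the nuclei were chosen from the same counts, all these ratios are descriptions and carry no test. Intervals given with ratios are exact 95% intervals and cover counting error only.

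Several adhesion and matrix genes of that list were higher, although Wnt4, Pthlh and Gata5, given below, had larger ratios. Adamts5, a protease that cleaves versican, stood at 1204 CPM in Control and 569 CPM under the inhibitor, against 89.9 and 86.0 CPM in the other endothelial nuclei, a log2 ratio of 3.30 (3.05 to 3.55). Cdh11, a cadherin of valve and mesenchymal cells, stood at 2131 and 1810 CPM against 478 and 592 CPM (log2 ratio 1.88, 1.73 to 2.03). Vcan, the versican that HAPLN1 binds and whose gene lies 43659 bases from Hapln1 on the opposite strand, had 33 and 17 UMIs (log2 ratio 2.87, 2.39 to 3.31). Cldn11, a tight-junction claudin, had only 9 UMIs, with a log2 ratio of 3.30 (1.99 to 4.35). All 4 were higher in both libraries.

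The flow-responsive factors were higher too. Klf2 stood at 2504 CPM in Control and 2511 CPM under the inhibitor, against 846 and 749 CPM in the other endothelial nuclei (log2 ratio 1.65, 1.51 to 1.78), and Klf4 at 1065 and 1346 CPM against 379 and 313 CPM (1.81, 1.61 to 1.99). Of the 17 genes listed for flow sensing, 5 were higher and 5 lower. The other 3 that were higher were Nos3, the endothelial nitric oxide synthase (log2 ratio 1.36), Thbd, the anticoagulant thrombomodulin (1.32), and Pkd1, polycystin-1 (1.49). The lower ones included Edn1, the vasoconstrictor endothelin-1, with 5 UMIs in the valve-like nuclei (-1.52), and the connexin Gja4 (-2.68); the connexin Gja5 had 0 UMIs.

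Among transcription factors of the cushions and endothelium, 8 of the 37 compared were higher and 9 lower. Gata5 had the largest ratio of the 8, from 10 UMIs (3.64, 2.38 to 4.69). Tbx20, a T-box factor of heart and cushions, had 31 and 46 UMIs (1.91, 1.54 to 2.24), Gata4 31 and 36 (1.15) and Nfatc1, the factor of endocardial cells that line the valves, 16 and 19 (1.04, 0.49 to 1.52). Prox1, which marks lymphatic endothelium and has been described on one face of the valve, stood at 63.9 and 66.3 CPM against 101 and 87.6 CPM, and its interval included 0 (-0.49, -1.46 to 0.24). Foxc2, another such gene, had 0 UMIs in the valve-like and in the other endothelial nuclei.

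Wnt9b was accompanied by a second ligand. Wnt4, which signals in valve and kidney development, had 28 UMIs in each library, in 15 Control and 10 PD-1 inhibitor nuclei, against 13 and 12 UMIs in all the other endothelial nuclei (298 and 265 CPM against 3.78 and 3.91 CPM; log2 ratio 6.18, 5.49 to 6.93). After thinning, a Wnt4 UMI was found in 12.5% of the valve-like and 0.0743% of the other endothelial nuclei. Outside the endothelium the gate with the highest Wnt4 level was the mesothelial one, at 35.3 CPM. Of the 18 WNT ligands besides Wnt9b, 6 had enough UMIs, of which Wnt4 and Wnt2 were higher, and Wnt5a and Wnt5b, both at 0 UMIs, were lower; with zeros set at 3 UMIs, 0 ligands were lower. Wnt2 had 6 UMIs in Control and 20 under the inhibitor (2.24, 1.56 to 2.81). Wnt16 fell below that minimum, with 10 UMIs in the valve-like and 2 in the other endothelial nuclei. A total of 12 ligands had 0 UMIs in the valve-like nuclei.

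Secreted WNT modulators were split, with 4 of 9 compared higher and 2 lower. Dkk2, which binds the co-receptors of the LRP family, had 44 and 34 UMIs (469 and 322 CPM against 12.5 and 18.2 CPM; log2 ratio 4.69, 4.24 to 5.13), and was also found in arterial-gated nuclei at 96.1 CPM. Dkk3 (17 UMIs, 2.54), a relative of Dkk2 with less clear function, and Apcdd1 (13 UMIs, 2.12), a WNT inhibitor at the cell surface, were higher as well. Sost, the inhibitor sclerostin, had 0 UMIs in the valve-like and 323 in the other endothelial nuclei. It was 3.30-fold lower when the 0 is set at 3 UMIs over both libraries, a convention and not a limit of the exact interval. Sfrp1, a secreted frizzled-related inhibitor, likewise had 0 against 217 UMIs (2.22-fold lower by the same convention).

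The receptors and intracellular parts of the WNT pathway were mostly close to the other endothelium, with list medians of -0.01 and 0.04. The exceptions included feedback targets: Axin2 had 7 and 9 UMIs (74.6 and 85.3 CPM against 6.98 and 8.14 CPM; log2 ratio 3.44, 2.50 to 4.25) and Nkd1 had 11 and 12 UMIs (3.42, 2.66 to 4.10). Both genes are known to be induced by WNT signalling through beta-catenin, and both were higher in each library. The beta-catenin gene Ctnnb1 had 38 and 33 UMIs and a log2 ratio of 0.12. Lef1, another common target, had 0 UMIs in the valve-like nuclei and only 17 in the other endothelial nuclei. Fzd7, a WNT receptor, and Tspan12, a co-activator of FZD4, were the 2 higher among 20 genes of the receptor list, at 1.29 and 1.22. In that list 4 genes were lower, so both counts were near the 11.5% and 21.2% over all genes. Among 18 intracellular and target genes compared, 3 were higher and 1 was lower.

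The other genes with the largest ratios were led by secreted factors. Nppc, which encodes the C-type natriuretic peptide, had 37 UMIs in 9 Control nuclei and 31 UMIs in 7 PD-1 inhibitor nuclei, and 2 UMIs in all 5382 other endothelial nuclei together (log2 ratio 9.80, 8.21 to 13.19). In the fibroblast, mesothelial and macrophage gates Nppc was at 1.76 CPM or less in each library. Over all nuclei outside the valve-like set, gated or not, it was at 0.853 CPM in Control and 2.61 CPM under the inhibitor. Its UMIs were concentrated: the 3 nuclei with the most held 64.9% of them in Control and 77.4% under the inhibitor. Pthlh, the parathyroid hormone-like peptide, was spread more widely, with 119 UMIs in 36 Control nuclei and 98 UMIs in 25 inhibitor nuclei (4.85, 4.58 to 5.12). A Pthlh UMI was found in 31.7% of the thinned valve-like and 1.04% of the thinned other endothelial nuclei, and arterial-gated nuclei came next at 123 CPM.

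Inhba, the subunit of activin A and inhibin A, had 134 UMIs in 29 Control nuclei and 391 UMIs in 22 PD-1 inhibitor nuclei (1428 and 3706 CPM against 64.8 and 87.9 CPM; log2 ratio 5.12, 4.94 to 5.30). The endocardial gate was the next highest endothelial gate at 121 CPM. Outside the endothelium the fibroblast gate stood at 49.6 CPM, the mesothelial gate at 20.7 CPM and the macrophage gate at 6.69 CPM. A UMI of Inhba was found in 50.9% of the Control and 46.8% of the inhibitor valve-like nuclei. The shares were 4.01% and 4.45% of fibroblast-gated nuclei, whose median depths were 1102 and 1160 UMIs. They were 0.491% and 0.900% of macrophage-gated nuclei, whose median depths were 956 and 1025 UMIs. After thinning the share was 34.6% in the valve-like and 1.76% in the other endothelial nuclei. Inhbb, its paralogue, was higher too (26 UMIs, 2.82), and Tgfb2 reached 1.58, and 5 of the 33 BMP and TGF-beta genes compared were higher and 5 lower, near the 11.5% and 21.2% over all genes. Bmp6, a BMP ligand of endothelial cells, was among the lower ones with 4 and 12 UMIs (-2.24, -3.10 to -1.59).

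**Figure D2:**
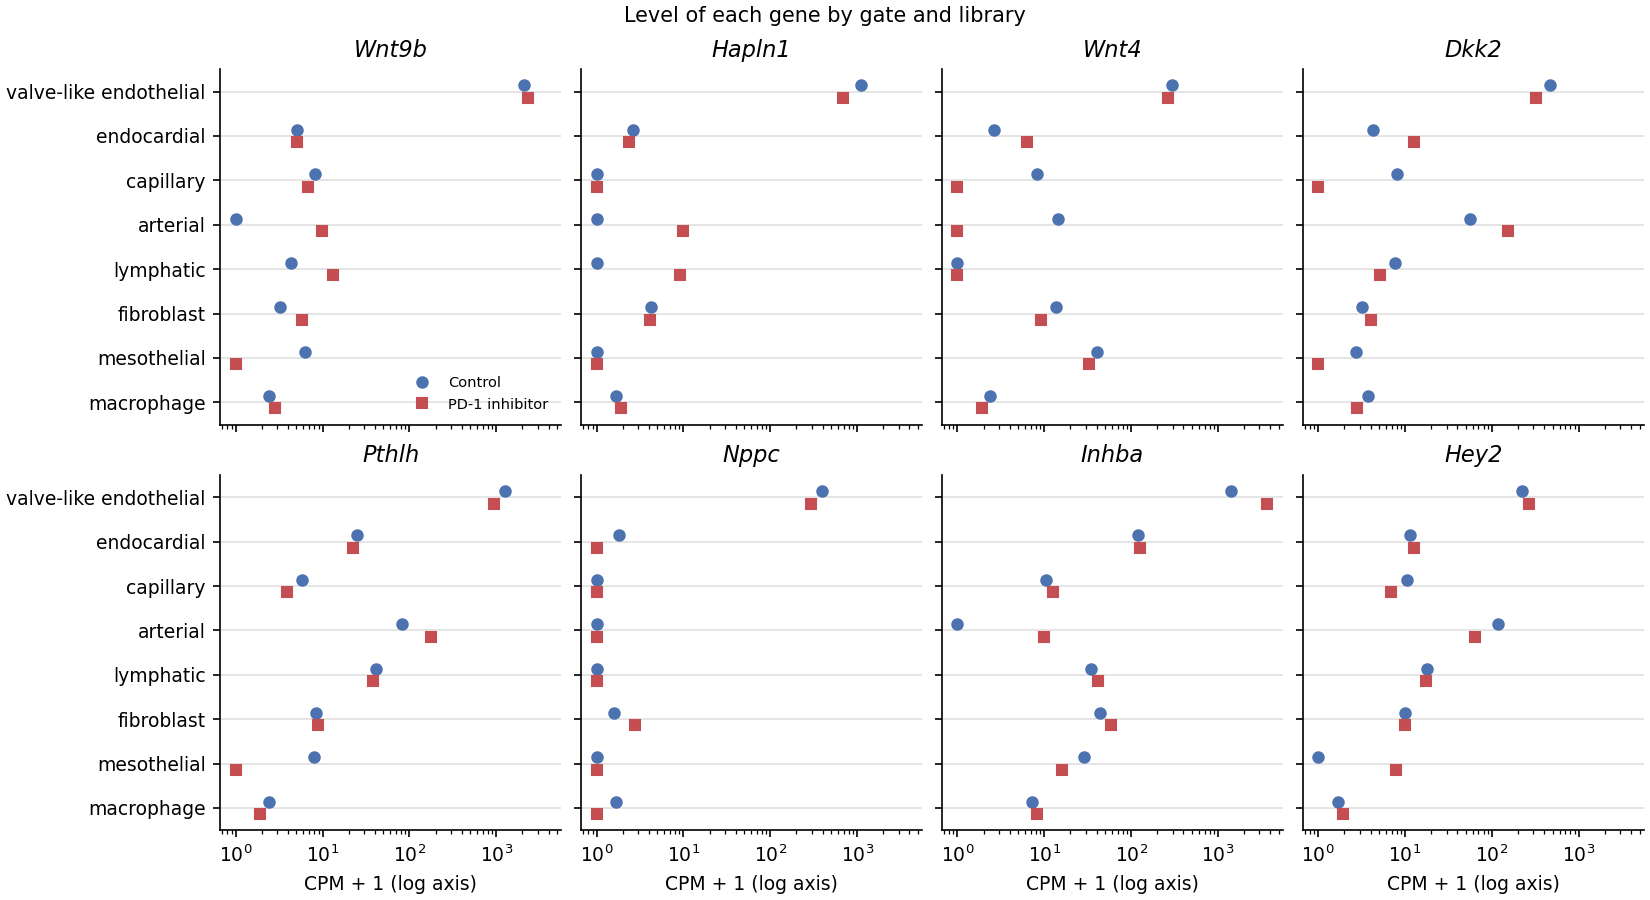
CPM plus 1 (log axis) of 8 genes in the valve-like endothelial nuclei, in 4 gates within the other endothelial nuclei and in 3 gates outside the endothelium, with circles for the Control and squares for the PD-1 inhibitor library; a point at 1 is a gene with 0 UMIs. The valve-like nuclei are the highest row in each panel, and the arterial gate comes next for Dkk2 and Pthlh.

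Matrix and extracellular proteins made up another share of the 20 genes with the largest ratios. Adamts8, a metalloproteinase of the aggrecanase family, had 6 UMIs in Control and 28 under the inhibitor, 14 of these in 1 nucleus (6.01, 5.15 to 6.96). Ltbp2, which binds microfibrils, had 12 UMIs in each library (4.71) and Olfml2a, an olfactomedin-like secreted protein, 47 and 50 (3.90). Of 19 further hyaluronan and proteoglycan genes compared, 5 were higher and 5 lower, against 11.5% and 21.2% of all genes. The median log2 ratio was -0.28. With zeros set at 3 UMIs, 2 were lower and the median was 0.78. The higher ones were Adamts5, Vcan, the hyaluronidase Hyal2 (1.68), the hyaluronan receptor Cd44 (2.32) and the receptor Hmmr. The 3 UMIs of Hmmr came from 1 nucleus (1.95, -0.60 to 3.45). The endocytic hyaluronan receptor Stab1 was lower, at 6 and 10 UMIs (-2.50). The synthases Has1, Has2 and Has3 had 0 UMIs in the valve-like nuclei.

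Retinoic acid enzymes, NOTCH genes and signalling genes followed. Aldh1a3, which makes retinoic acid, had 7 and 15 UMIs (4.50), and Cyp26b1, which degrades it, had 26 in each library (3.57). Hey2, a NOTCH target and repressor, had 21 and 28 UMIs (3.88, 3.36 to 4.37) and was next highest in the arterial gate, at 92.3 CPM. The NOTCH ligands Dll1 (1.67) and Jag1 (1.23) were also higher among 17 genes of the pathway compared, while 7 were lower, among them Dll4 (2 UMIs, -2.59) and Hey1 (3 UMIs, -1.46).

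The rest of the 20 had various roles, with log2 ratios between 3.62 and 5.38. They were Fam167a (24 and 27 UMIs), the ubiquitin ligase Hecw1 (26 and 7), the carbonic anhydrase Car5b (9 and 9), the potassium channel Kcnma1 (9 and 8), Ehd3 (12 and 12), Epdr1 (16 and 6), the lectin Clec4g (15 and 13), the calpain Capn5 (15 and 27) and the phosphatase Ptprr (26 and 30). Ptprr lies on chromosome 10 on the same strand as the selecting gene Ptprb, with 590 bases between their annotated ends; of the 28 nuclei with Ptprr, 26 also had Ptprb, which was present in 95 of the 104 valve-like nuclei in any case. Of 32 guidance genes 6 were higher and 8 lower, near the 11.5% and 21.2% over all genes. Sema3f (2.05), Ntn4 (1.99), Unc5b (1.94) and Sema3d (1.82) were among the higher ones and the semaphorin receptor Nrp1 (-2.23) among the lower ones.

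Genes of capillary and arterial endothelium were mostly low, and those of lymphatic and venous endothelium were mixed. Of 13 capillary genes 12 were lower and none was higher, with a median log2 ratio of -2.14, or -1.72 with the genes at 0 set at 3 UMIs. Cd36, the fatty acid transporter, had 12 and 19 UMIs (128 and 180 CPM against 1286 and 1301 CPM; -3.03, -3.62 to -2.55). Aplnr, the apelin receptor and a gene of the capillary gate, had 0 UMIs against 622 (6.35-fold lower with the 0 set at 3 UMIs). Of 14 arterial genes 8 were lower and 3 higher (Unc5b, Stmn2 and Jag1), and of 11 lymphatic genes 4 were lower and 3 higher. The lymphatic list summed to 1907 CPM in Control and 1279 CPM under the inhibitor, against 1245 and 1209 CPM. The 3 higher ones were Nts, the peptide neurotensin (48 and 27 UMIs, 2.50), Sema3d and Itga9, an integrin needed for lymphatic valves (1.13). Of 6 venous genes 1 was higher and 2 were lower, with sums of 1705 and 2379 CPM against 1954 and 2371 CPM.

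The endocardial genes were divided. Npr3, the clearance receptor for natriuretic peptides and a gene of the endothelial gate itself, had 18 and 22 UMIs (192 and 209 CPM against 1303 and 1783 CPM; -2.91, -3.42 to -2.48). Smoc1, a matricellular protein, had 1 UMI against 1540 (-4.97, -10.86 to -3.08), and Hmcn1 and Plvap were lower by -1.21 and -1.16 on the log2 scale. In all 6 of the 14 were lower and 3 were higher, Inhba, Gata4 and Nfatc1. The 28 pan-endothelial genes had a median of -0.24, with Ptprb (1.23) and Nos3 higher and 8 lower, including Cdh5 (VE-cadherin, -1.01), Emcn (-1.23) and Kdr (-1.72). Pecam1 stood at 2461 and 2208 CPM against 1425 and 1538 CPM.

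**Figure D3:**
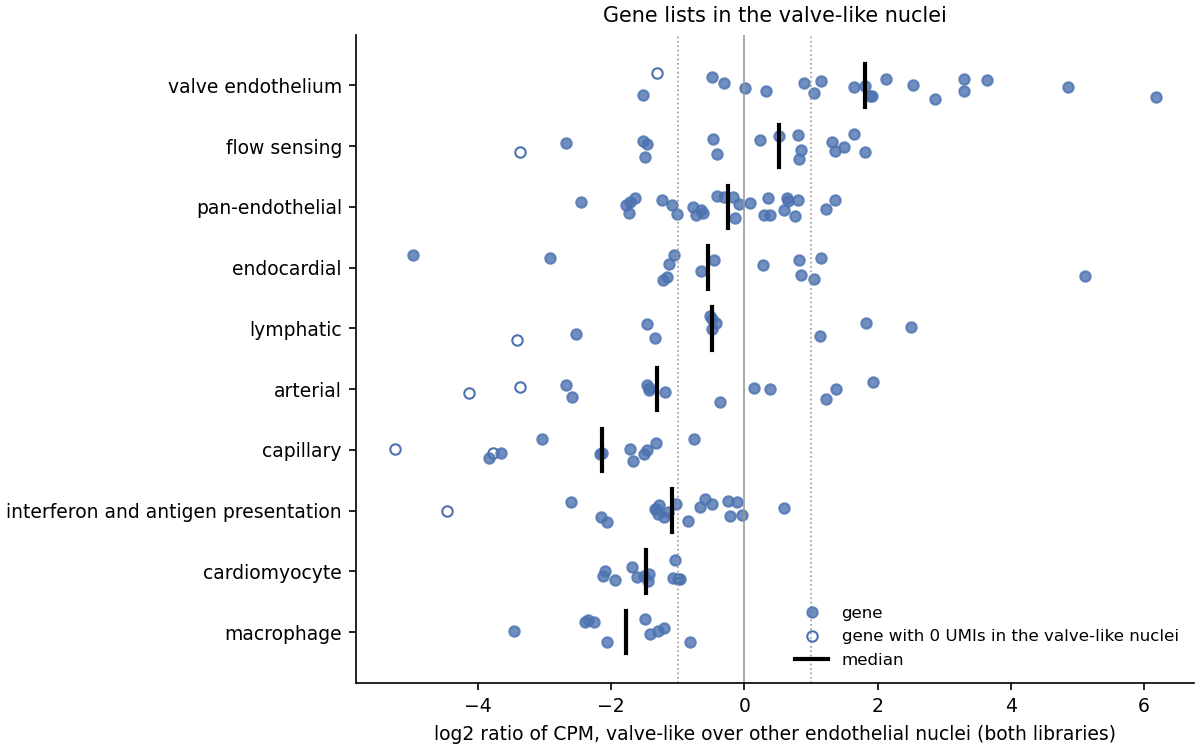
Log2 ratio of CPM, valve-like over other endothelial nuclei in both libraries together, for each gene of 10 lists with at least 20 UMIs; bars are medians, open circles are genes with 0 UMIs in the valve-like nuclei, and dotted lines mark 2-fold. The valve endothelium list has its median at 1.81 and the capillary list at -2.14, and Wnt9b and Hapln1 are left out.

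The 10 smallest ratios belonged mostly to genes with no UMI in the valve-like nuclei, which held 199377 UMIs in all. Aplnr and Smoc1, given above, were among them. With the 0 set at 3 UMIs, Bank1 was 7.86-fold lower (770 UMIs in the other endothelial nuclei), Dlg2 7.44-fold (729) and St8sia4 6.77-fold (663). Terf1 was 5.40-fold lower (529), Cyp4b1 5.39-fold (528), Myl4 5.09-fold (498), Oas2 4.77-fold (467) and Zmynd15 4.30-fold (421). The exact intervals allow smaller differences, with upper limits of -2.67 for Bank1 and -1.80 for Zmynd15 on the log2 scale. Bank1 and Oas2 were highest in the macrophage gate, at 571 and 383 CPM, whereas Terf1, which binds telomeres, stood between 56.8 and 96.1 CPM in each of the 7 gates. Of the 2819 genes called lower, 1249 had 0 UMIs in the valve-like nuclei, and 1646 would be called with zeros set at 3 UMIs. Interferon and antigen presentation genes were lower in 11 of 20 cases and higher in 0. Cd274, which encodes the PD-1 ligand PD-L1, had 2 UMIs in Control and 0 under the inhibitor, against 234 and 105 in the other endothelial nuclei (-2.06, -5.43 to -0.51).

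Markers of most other cell types were below their level in the other endothelial nuclei. The 10 macrophage genes summed to 394 CPM in Control and 578 CPM under the inhibitor, against 1619 and 1688 CPM in the other endothelial nuclei, with 9 of 10 lower. Of 8 lymphocyte genes 7 were at 0, the defining Cd3e, Ms4a1 and Cd79a among them, and Ebf1, which fibroblasts and mural cells also express, held all of that list's UMIs (43 in Control and 101 under the inhibitor). The list therefore summed to 458 and 957 CPM against 1178 and 894 CPM, and with zeros set at 3 UMIs 0 of its genes were lower. Of 6 glial and adipocyte genes 4 were at 0, and the 8 mesothelial genes summed to 32.0 and 152 CPM against 163 and 171 CPM, a sum that the rule itself limits. The 8 mural genes summed to 149 and 85.3 CPM against 591 and 551 CPM. The 12 cardiomyocyte genes summed to 6073 CPM in Control and 2265 CPM under the inhibitor, against 10672.7 and 12373.7 CPM, with 10 of 12 lower. The 16 genes of valve interstitial cells and fibroblasts were the exception, at 4528 and 4900 CPM against 2424 and 3126 CPM, with 4 of 14 compared higher (Pi16, Col1a1, Lum and Gsn) and 2 lower. Their part in the results was not tested.

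The nuclei just inside and just outside the threshold differed by degree. With 1 UMI of the pair, 69 endothelial nuclei fell just outside, and with 2 UMIs 32 fell just inside. Pthlh stood at 31.5 CPM in nuclei with 0 UMIs of the pair, 460 with 1, 840 with 2 and 1174 with 3 or more. Wnt4 went over the same steps from 2.96 through 64.1 and 156 to 324 CPM, and Klf2 from 789 through 1561 and 2324 to 2572 CPM. Inhba did not follow the steps in order, at 52.5, 1668, 625 and 3327 CPM. Npr3 went the other way, from 1541 through 738 and 605 to 60.7 CPM. The median depth of these nuclei moved along with the classes, from 986 through 1139 and 1265 to 1916 UMIs.

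**Figure D4:**
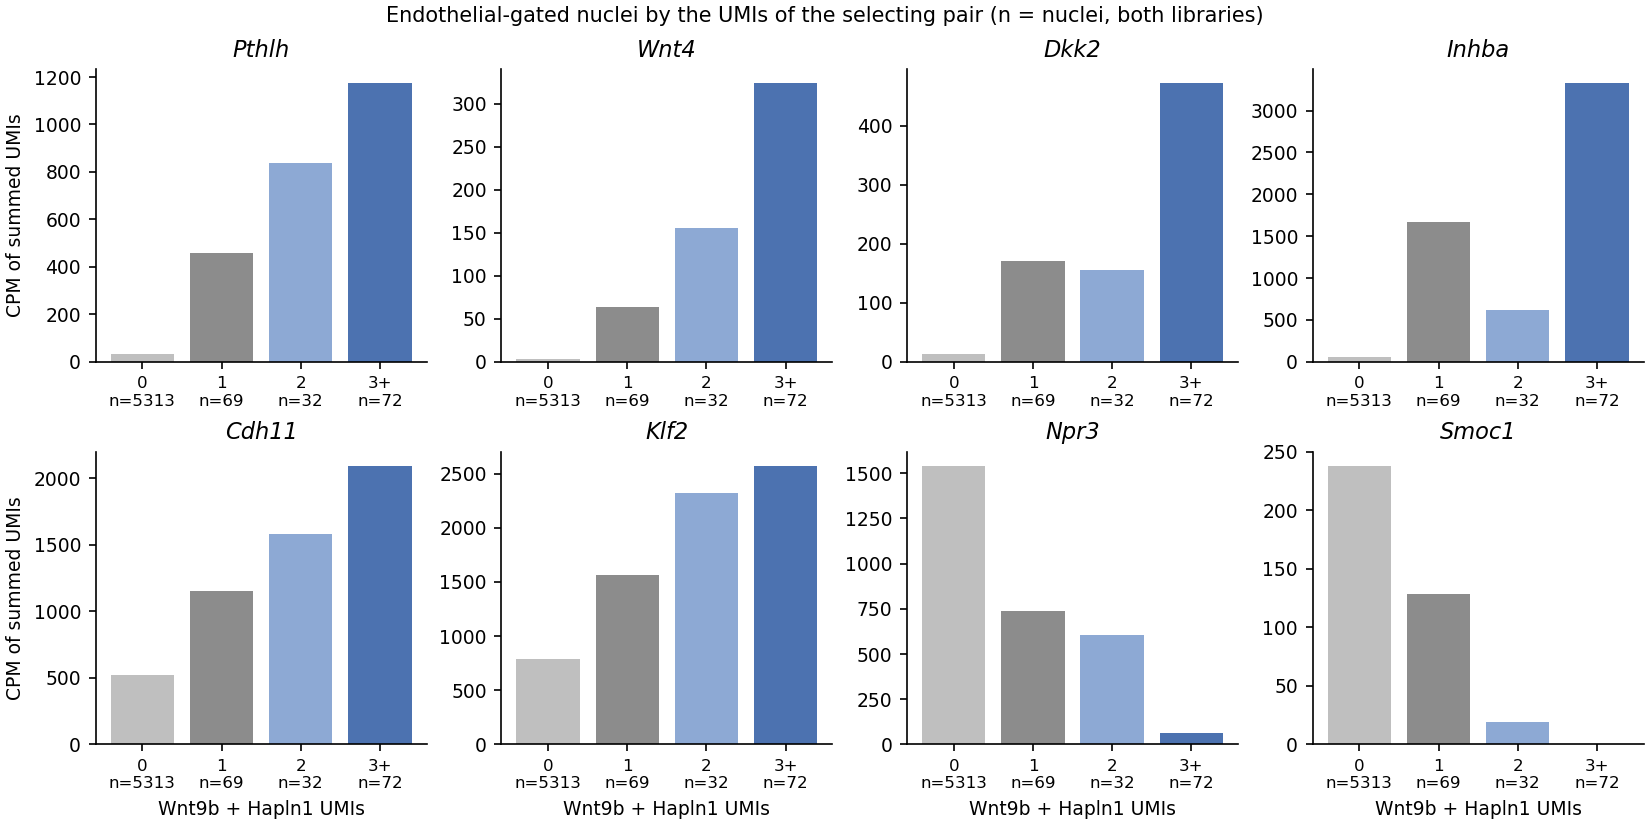
CPM of summed UMIs of 8 genes in endothelial-gated nuclei with 0, 1, 2 and 3 or more UMIs of Wnt9b and Hapln1 together, both libraries pooled. The 69 nuclei with 1 UMI, just outside the rule, lie between those with none and those with 3 or more in each panel.

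The valve-like nuclei were not uniform. The 46 nuclei with Wnt9b only held Inhba at 4210 CPM, the 43 with both genes at 1673 CPM and the 15 with Hapln1 only at 224 CPM. By library this was 2469, 1041 and 287 CPM in Control and 5380, 2182 and 0 CPM under the inhibitor. There Hapln1 only was 3 nuclei. The shares of nuclei with an Inhba UMI were closer, at 54.35% with Wnt9b only, 51.16% with both and 26.67% with Hapln1 only. Of the 382 Inhba UMIs with Wnt9b only, single inhibitor nuclei held 67, 61, 52 and 47. Dkk2 was highest where both genes were caught, at 611 CPM against 242 and 224 CPM, and so were Wnt4 (476 against 154 and 112 CPM) and Vcan (403 against 121 and 224 CPM); all 3 were highest there in each library. Vwf, the von Willebrand factor, was highest with Wnt9b only in each library, at 686 CPM in Control and 1363 CPM under the inhibitor, against 274 and 485 CPM with both genes. Nppc was found in 16 nuclei, 14 of which also had Inhba and 1 of which had Dkk2, although Inhba was present in 51 and Dkk2 in 33 of the 104. Dkk2 and Fam167a, each in 33 nuclei, shared 20. These counts depend on depth: the nuclei with Inhba had a median of 1901 UMIs and those without it 1515.

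The libraries were similar in how many valve-like nuclei they held. The rule took 0.564% of the Control nuclei (exact Clopper-Pearson 95% interval 0.427 to 0.730) and 0.591% of the PD-1 inhibitor nuclei (0.435 to 0.785), a ratio of 1.05 with an interval of 0.697 to 1.57. Of the endothelial-gated nuclei they were 1.91% (1.45 to 2.47) and 1.88% (1.38 to 2.49). After thinning to 500 UMIs the rule took 0.218% and 0.201%, and with at most 5% mitochondrial UMIs 0.404% and 0.559%. That interval of the ratio covers counting error only, and with 1 library per condition no difference in share could be tested.

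Within the valve-like nuclei, the levels of the 2 libraries were then compared, the contrast the study was designed for. Of 2494 genes with at least 20 UMIs, 192 (7.7%) were higher by 2-fold or more in the PD-1 inhibitor library and 166 (6.66%) were lower, with a median log2 ratio of 0.08. Wnt9b stood at 2056 CPM in Control and 2322 CPM under the inhibitor (log2 ratio 0.17, -0.10 to 0.46) and Hapln1 at 1097 and 692 CPM (-0.66, -1.12 to -0.22), in nuclei that were chosen by these genes. Most of the other leading genes differed by less than 2-fold between the libraries, among them Nppc (-0.42), Wnt4 (-0.17), Pthlh (-0.45), Dkk2 (-0.54), Hey2 (0.24) and Olfml2a (-0.08). Of the 20 genes with the largest ratios over the other endothelium, 4 passed 2-fold: Hecw1 (-1.99, -3.51 to -0.82), Epdr1 (-1.51, -3.23 to -0.16), Adamts8 (1.96, 0.75 to 3.62) and Inhba.

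Inhba was among the 8 genes with the largest ratios, 391 UMIs under the inhibitor against 134 in Control (log2 ratio 1.37, 1.09 to 1.67). In the other endothelial nuclei it was 0.44 (0.18 to 0.70), and inside the main cluster alone it was 1.32. The UMIs came from 22 inhibitor and 29 Control nuclei, with a median of 10.5 and 2 UMIs where present, and the 3 highest nuclei held 46.0% and 45.5% of them. Of the other BMP and TGF-beta genes with 20 UMIs, Smad7, an inhibitor of TGF-beta signalling (12 and 33 UMIs, 1.25), and Id1, a BMP target (23 and 58, 1.15), were higher and Inhbb (18 and 8, -1.29) was lower. Tgfb1 had 20 UMIs in Control and 19 under the inhibitor (-0.24, -1.23 to 0.74), and Tcf12 had 28 and 19 (-0.72, -1.65 to 0.16). Both intervals include 0.

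The other 7 genes with large ratios had fewer UMIs. Fgf14 had 3 UMIs in Control and 60 under the inhibitor, with 17 in 1 nucleus and 39 in the top 3 (3.94, 2.54 to 6.47). Itgbl1, 15 and 43 UMIs (1.32), is its neighbour on chromosome 14 with 2288 bases between their ends on opposite strands, and 5 inhibitor nuclei had both. Itgbl1 came from 3 Control nuclei, and its ratio was 0.32 as a mean over nuclei and 5.54 with at least 3 UMIs of the pair. Whether strand was used in counting is not given in the sources used here, so reads of such neighbours cannot be assigned with certainty. Fabp4, a fatty acid binding protein of capillaries, had 12 and 54 UMIs (1.96), but 12 and 15 inside the main cluster (0.23). Zmiz1, a transcriptional co-regulator (15 and 55 UMIs, 1.67), Selenof, a selenoprotein of the endoplasmic reticulum (14 and 43, 1.42), and Tmem50a (13 and 38, 1.34) were each spread over 20 to 24 inhibitor nuclei with at most 6 UMIs in any. They kept ratios of 1.83, 1.65 and 1.38 inside the cluster. St3gal4, a sialyltransferase (12 and 40, 1.53), had 16 of its UMIs in 1 nucleus.

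**Figure D5:**
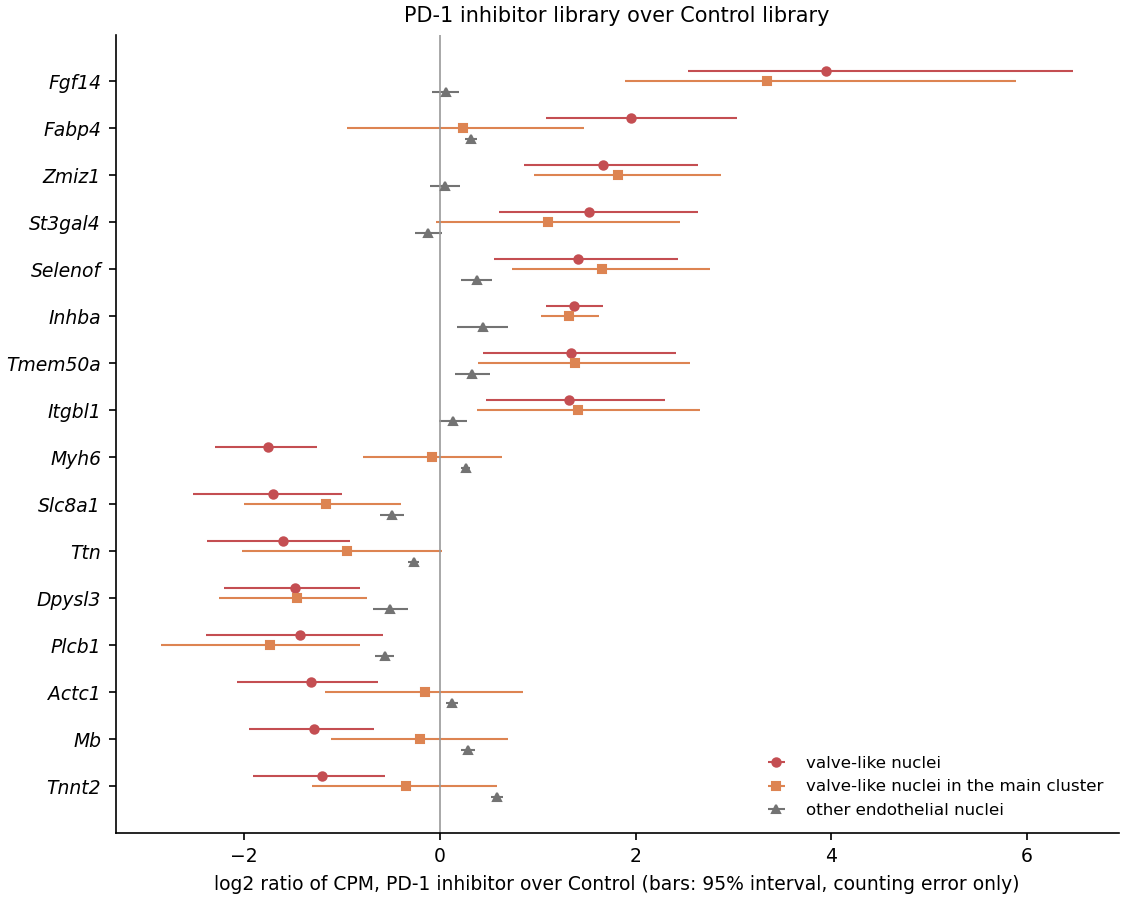
Log2 ratio of CPM, PD-1 inhibitor over Control library, of the 8 highest and 8 lowest named genes in the valve-like nuclei (circles), in those of the main cluster only (squares) and in the other endothelial nuclei (triangles), with 95% intervals for counting error. In the main cluster, Fabp4, Myh6, Actc1, Mb and Tnnt2 lie between -0.35 and 0.23, Ttn lies at -0.95, Inhba at 1.32 and Dpysl3 at -1.46.

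The smallest ratios fell into separate sets. Muscle genes formed the first: Myh6 had 130 UMIs in Control and 43 under the inhibitor (-1.75, -2.30 to -1.26), and Ttn, Actc1, Mb and Tnnt2 lay between -1.60 and -1.20. Of 11 cardiomyocyte genes compared, 10 were lower by 2-fold or more, with a median of -1.32, against 0.28 in the other endothelial nuclei. A single Control nucleus held 35 of the Myh6 UMIs, and 2 Control nuclei lay in the cluster led by Acta1 and Ckm. Inside the main cluster the same 11 genes had a median of -0.15, and Myh6 had 36 UMIs in each library. Ttn had 26 and 14 UMIs there (-0.95, -2.02 to 0.02). Slc8a1, the sodium-calcium exchanger that cardiomyocytes also use, was lower there by more than 2-fold, with 45 and 21 UMIs (-1.16).

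Dpysl3, a cytoskeletal protein of the collapsin response family, and Plcb1, a phospholipase, formed the other set. Dpysl3 had 65 UMIs in 28 Control nuclei and 26 UMIs in 16 inhibitor nuclei (-1.47, -2.21 to -0.81), with -1.46 inside the cluster and -0.50 in the other endothelial nuclei. Plcb1 had 39 and 16 UMIs (-1.43, -2.39 to -0.58), of which 20 came from 1 Control nucleus. Among the valve matrix genes Adamts5 had 113 and 60 UMIs (-1.08, -1.56 to -0.62) and Vcan 33 and 17 (-1.11, -2.06 to -0.24), against -0.06 and 0.56 in the other endothelial nuclei. With Postn, at 14 and 7 UMIs, these were the 3 lower among 15 valve endothelium genes compared, and 0 were higher. Over all genes compared, 6.66% were lower and 7.7% higher.

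The endocardial list had 3 of 12 genes higher, Inhba among them, and 0 lower, against 7.7% and 6.66% of all genes. Its median was 0.27, against 0.35 in the other endothelial nuclei. Of 8 immediate early genes compared, 3 were lower and 0 higher: Fos had 31 and 5 UMIs (-2.69), Nr4a1 26 and 5 (-2.44) and Dusp1 29 and 12 (-1.41). These early-response genes were lower in the other endothelial nuclei as well, at -3.54, -1.74 and -1.12. Of 22 transcription factors compared 1 was higher, Gata2, with 8 and 37 UMIs (1.97, 0.92 to 3.35), and 3 were lower (Sox7, Erg and Zfpm2), against 7.7% and 6.66% of all genes. Of 15 collagens, laminins and basement membrane genes 1 was higher, Col4a3, with 4 and 24 UMIs (2.28), and 0 were lower. Of 12 flow sensing genes and 7 NFAT and calcineurin genes 0 passed 2-fold, counts too small to set apart from those shares, and Klf2 stood at 0.00 (-0.25 to 0.26).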

How the data were processed

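Single-nucleus RNA was captured with a GEXSCOPE kit and sequenced on an Illumina NovaSeq instrument, 1 library per condition. The authors deposited raw counts (UMIs per gene and nucleus, 32589 genes, at least 500 UMIs per nucleus). The submitters' processing notes name GRCm38 and mm10; the aligner and counter are not given in the sources used here. Of the gene IDs, 32445 matched the GENCODE annotation used for positions. The nuclei, gene lists and comparisons were chosen with earlier results of these data known.

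UMIs were summed per library and set of nuclei, and log2 ratios of CPM were taken with 0.5 UMI added, for genes with at least 20 UMIs in the sets compared, with exact conditional binomial intervals. With 1 library per condition there is no test, and nuclei are not replicates. Further endothelial gates needed at least 2 UMIs of their genes. Named genes were those of the rule, the 20 largest and 10 smallest ratios over the other endothelial nuclei (at least 50 UMIs, on the same side of 0 in each library, the largest in at least 10% of the nuclei), the 8 largest and 8 smallest between libraries (at least 50 UMIs), and list members; mitochondrial and ribosomal protein genes were not named, nor were genes that differ by sex. Hmmr and other list members under 10 UMIs were named after their values were seen. Scrublet in scanpy 1.11.5 called 5.85% of Control and 3.87% of PD-1 inhibitor nuclei doublets, 1 of them a valve-like nucleus; it was kept. Nuclei were clustered with Leiden (2000 variable genes, 30 components, 15 neighbours, resolution 1). Python 3.11.15, scipy 1.17.1 and numpy 2.4.6 were used. The ratios and intervals were tested on simulated sums drawn independently for each gene, which leave out the concentration of UMIs in single nuclei.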

Additional observations from a re-analysis of the deposited data

Results flagged for a closer look

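Myh6 had a log2 ratio of -1.75, PD-1 inhibitor over Control, in the valve-like nuclei and 0.26 in the other endothelial nuclei, Actc1 had -1.32 against 0.13, Mb had -1.29 against 0.29 and Tnnt2 had -1.20 against 0.58. The 4 cardiomyocyte genes drew attention because the libraries differed in opposite directions in the 2 sets of nuclei, and the difference itself was not tested, with 1 library per condition. Inside the main cluster their ratios were -0.08, -0.15, -0.20 and -0.35. Single Control nuclei held up to 35 UMIs of Myh6, 33 of Mb, 23 of Actc1 and 15 of Tnnt2. The cause was not tested.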

How the results depend on the processing

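No paired analysis was possible because each condition had 1 library. Libraries could not be left out for the same reason. The share was 0.386% (Control) and 0.415% (inhibitor) with at least 3 UMIs of the pair, and 0.227% and 0.252% with a UMI of each gene. It was 0.218% and 0.201% after thinning, and 1.91% and 1.88% of endothelial-gated nuclei. In these settings fewer nuclei or another denominator enter by construction. With at most 5% mitochondrial UMIs the share was 0.404% and 0.559%, a ratio of 1.39 in place of 1.05. The valve-like nuclei had a median of 4.44% mitochondrial UMIs in Control and 2.98% under the inhibitor. The part of this in that ratio was not tested. Between libraries, genes of at least 50 UMIs gave 27 higher and 18 lower of 660 compared, and thinning 28 and 19 of 341. Genes of at least 1 UMI gave 2974 and 2826 of 12172, while 3 UMIs of the pair gave 124 higher of 1690. The main setting gave 192 and 166 of 2494. Against the other endothelium, genes of at least 1 UMI gave 8086 higher of 21445, and 1 UMI added gave 1760 lower of 13296. Thinning gave 2031 higher and 2043 lower of 11372 there, in place of 1527 and 2819 of 13296. The median of the glial and adipocyte list turned from -1.79 to 1.45 after thinning. Of the values of named genes, 340 of 352 against the other endothelium and 150 of 160 between libraries stayed within their interval. Further alternatives were chosen after seeing the data. In the main cluster the capillary list had a median of -3.49 and the cardiomyocyte list -2.46, and Fabp4 between libraries was 0.23; with the other endothelium weighted to the depths of the valve-like nuclei, Inhba had 4.74 and Dkk2 4.23. Depth also limits the comparison between libraries, since genes under 20 UMIs were not compared.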

Other observations

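The genes around the selecting pair were looked at after their values were seen. Within 1 Mb of Wnt9b, 23 other genes had at least 20 UMIs, of which 8 were higher and 3 lower by 2-fold or more in the valve-like nuclei, against 11.5% and 21.2% of all genes. The 3 lower ones were at 0 UMIs, and Hexim2 was among the higher ones with 1 UMI (-4.67 to 3.35). Rprml, a small membrane protein gene, had 17 UMIs against 3 in the other endothelial nuclei (log2 ratio 7.35, 5.74 to 9.94), Itgb3, the integrin beta 3 subunit, had 16 against 128 (2.07) and Gosr2 had 18 against 175 (1.78). Within 1 Mb of Hapln1, 2 of 5 such genes were higher and 0 were lower. They were Vcan and Edil3, an extracellular matrix protein of endothelial cells with 31 UMIs against 98 (3.38, 2.74 to 3.96).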
